A study of Mus musculus with 9 samples.

Results

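The genes described here are 38 mouse genes of glucose breakdown and of the response to low oxygen, taken from a fixed list of symbols among the 55416 genes in the count table. They comprise 2 glucose transporters, 15 glycolytic enzymes, 2 enzymes of fructose-2,6-bisphosphate, 4 genes of lactate exchange, 4 kinases of pyruvate dehydrogenase, 5 genes of oxygen sensing and 6 further targets of the hypoxia-inducible factors. The rule is the list of symbols itself and uses no measured value, though the list was drawn up with earlier results of these data known. All 38 symbols were found. Of these, 37 had enough reads to be tested, among 14879 genes tested in all. The gene left out was Car9, an extracellular carbonic anhydrase and a classic hypoxia target, with normalized counts between 1 and 5 in all 9 libraries.

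The cells were AdvSca1-SM cells, resident progenitors of the vessel wall that carry Sca1 and descend from smooth muscle. They came from pooled SM22α-Cre-YFP mice, in which the smooth muscle promoter of SM22α drives the Cre, and were sorted from aorta and carotid artery, cultured and passaged. RNA-Seq was done on 3 libraries per group. All cells received 0.1% DMSO for 72 hours. Cells were maintained in stem cell medium with 10% serum, basic fibroblast growth factor and epidermal growth factor. Stem cells had no TGF-β and, per the study's methods, stayed in stem cell medium. The same methods describe growth arrest of the other cells in stem cell medium with 0.1% serum before treatment. TGF-β cells were switched to DMEM with 0.1% serum and 5 ng/mL TGF-β1, and Both cells had the same with 50 μM PFI-3, an inhibitor of the bromodomain of Brg1. Between Stem and either treated group, medium (with its serum and growth factors) and cytokine changed together, so their parts cannot be told apart. TGF-β and Both differed in PFI-3 alone. The comparisons share libraries (TGF-β versus Stem and Both versus TGF-β share the 3 TGF-β libraries), so each is given on its own. The mice were pooled, and p-values measure only the spread between these libraries.

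Glycolysis turns glucose into pyruvate in the cytosol. Pyruvate is either reduced to lactate by lactate dehydrogenase and exported, or oxidised in mitochondria by pyruvate dehydrogenase, which the PDH kinases switch off. The hypoxia-inducible factors Hif1a and Epas1 (HIF-2α) are marked for destruction by the oxygen-dependent prolyl hydroxylases of the Egln family and the ligase subunit Vhl, and when stable they bind short DNA elements near many glycolytic genes. They are controlled largely at the protein level, which RNA does not measure. Myofibroblasts are known for high glucose use.

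The core letters of the hypoxia response element, ACGTG and GCGTG, were searched on both strands of the RefSeq promoter windows (GRCm38.p6), each from 250 bases before to 50 bases after a transcription start. The table held 49 windows for 35 of the 38 members. Slc2a3, Epas1 and Ndrg1 were not matched. At least 1 match was found in 39 of the 49 windows (79.6%), in 61.2% of the 13385 windows of genes tested here and in 43.8% of all 32851 windows. ACGTG was in 19.6% of all windows and GCGTG in 32.4%, with windows that held both counted in each. The windows differ in composition, with a median GC content of 62.3% for members, 60.7% for genes tested and 52.7% for all. Both kinds of member held the letters often, in 27 of 34 windows of genes that were higher in TGF-β than in Stem and in 6 of 7 windows of those that were lower. The 250 bases before the start of 3 genes with large rises (Slc16a3, Ddit4 and Hk2) and of 3 with large falls (Adm, Ldhb and Pdk4) are given so that the matches can be seen in place, read 5′ to 3′ on the gene's own strand, with the matched letters in capitals. CACGT and CACGC are the same motifs on the opposite strand.
Slc16a3 (chr11:120948817-120949066, plus strand): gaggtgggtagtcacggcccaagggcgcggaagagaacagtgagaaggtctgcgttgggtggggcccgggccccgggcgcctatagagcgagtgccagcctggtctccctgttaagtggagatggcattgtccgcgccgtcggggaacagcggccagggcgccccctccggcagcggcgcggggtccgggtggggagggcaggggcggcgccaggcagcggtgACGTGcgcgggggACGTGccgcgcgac
Ddit4 (chr10:59951771-59952020, minus strand): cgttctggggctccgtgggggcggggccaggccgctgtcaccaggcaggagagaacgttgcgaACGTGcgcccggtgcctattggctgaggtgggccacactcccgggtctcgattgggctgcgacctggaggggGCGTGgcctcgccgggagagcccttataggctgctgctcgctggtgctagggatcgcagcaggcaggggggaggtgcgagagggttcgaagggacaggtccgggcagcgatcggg
Hk2 (chr6:82774455-82774704, minus strand): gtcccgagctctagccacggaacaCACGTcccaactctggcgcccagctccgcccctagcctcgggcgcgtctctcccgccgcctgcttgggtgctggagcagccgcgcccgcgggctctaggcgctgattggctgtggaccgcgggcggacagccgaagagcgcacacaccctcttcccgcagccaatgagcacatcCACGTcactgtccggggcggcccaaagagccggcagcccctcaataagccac
Adm (chr7:110627407-110627656, plus strand): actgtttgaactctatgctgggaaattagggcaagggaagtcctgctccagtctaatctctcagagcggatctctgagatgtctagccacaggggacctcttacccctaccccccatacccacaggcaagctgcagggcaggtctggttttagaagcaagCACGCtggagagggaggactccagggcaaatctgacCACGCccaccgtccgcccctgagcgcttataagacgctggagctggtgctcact
Ldhb (chr6:142507958-142508207, minus strand): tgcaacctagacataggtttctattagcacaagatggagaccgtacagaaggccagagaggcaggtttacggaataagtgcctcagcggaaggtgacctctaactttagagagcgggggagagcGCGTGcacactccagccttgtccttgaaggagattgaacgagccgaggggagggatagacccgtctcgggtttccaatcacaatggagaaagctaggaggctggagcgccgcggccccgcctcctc
Pdk4 (chr6:5496279-5496528, minus strand): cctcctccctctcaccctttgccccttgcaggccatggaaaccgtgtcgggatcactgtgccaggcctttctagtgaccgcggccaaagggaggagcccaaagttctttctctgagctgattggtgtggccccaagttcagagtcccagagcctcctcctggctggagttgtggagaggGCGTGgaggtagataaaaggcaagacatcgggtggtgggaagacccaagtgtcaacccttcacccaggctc
Slc16a3 had 2 copies of ACGTG, starting 27 and 14 bases before the start of transcription. Hk2 had 2 copies on the opposite strand, at 226 and 52 bases. Adm, which fell the most of all members, also had 2 matches, both of GCGTG on the opposite strand, at 90 and 54 bases. Ldhb and Pdk4 had 1 GCGTG each, at 126 and 71 bases. Aldoc, whose rise was second to that of Slc16a3, had matches in each of its windows and is not shown. Gpi1, Tpi1 and Vhl, called higher in TGF-β, and Eno2, not called, had no match in any window. The matches are a description of these letters and no measure of binding.

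In TGF-β cells most genes of the glycolytic chain were higher than in Stem, and 8 members were lower, namely Slc2a1, Ldhb, Pdk2, Pdk3, Pdk4, Epas1, Ndrg1 and Adm. Levels are normalized counts, that is, read counts scaled to a common library of 41200277 reads, and fold changes, standard errors (SE) and adjusted p-values are from edgeR's quasi-likelihood test over all 14879 genes. At an adjusted p below 0.05, 24 of the 37 members tested were higher in TGF-β and these 8 were lower, against 37.3% and 37.7% of all genes tested. With a change of at least 2-fold as well, 8 members were higher and 4 lower, against 10.6% and 14.5% of all genes. Scaling to total counts moves the median of all genes by -0.12 on the log2 scale. With it the members' split past the 2-fold minimum was 5 higher and 5 lower, against 1347 and 2454 of all 14879 genes. The members' median log2 fold change was 0.40, and that of all genes was -0.003. In 32 of the 37 members the 3 Stem and 3 TGF-β libraries did not overlap, which held for 76.8% of all genes. RNA was measured in bulk, so that fewer cells of a type and less RNA per cell cannot be told apart.

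**Figure D1:**
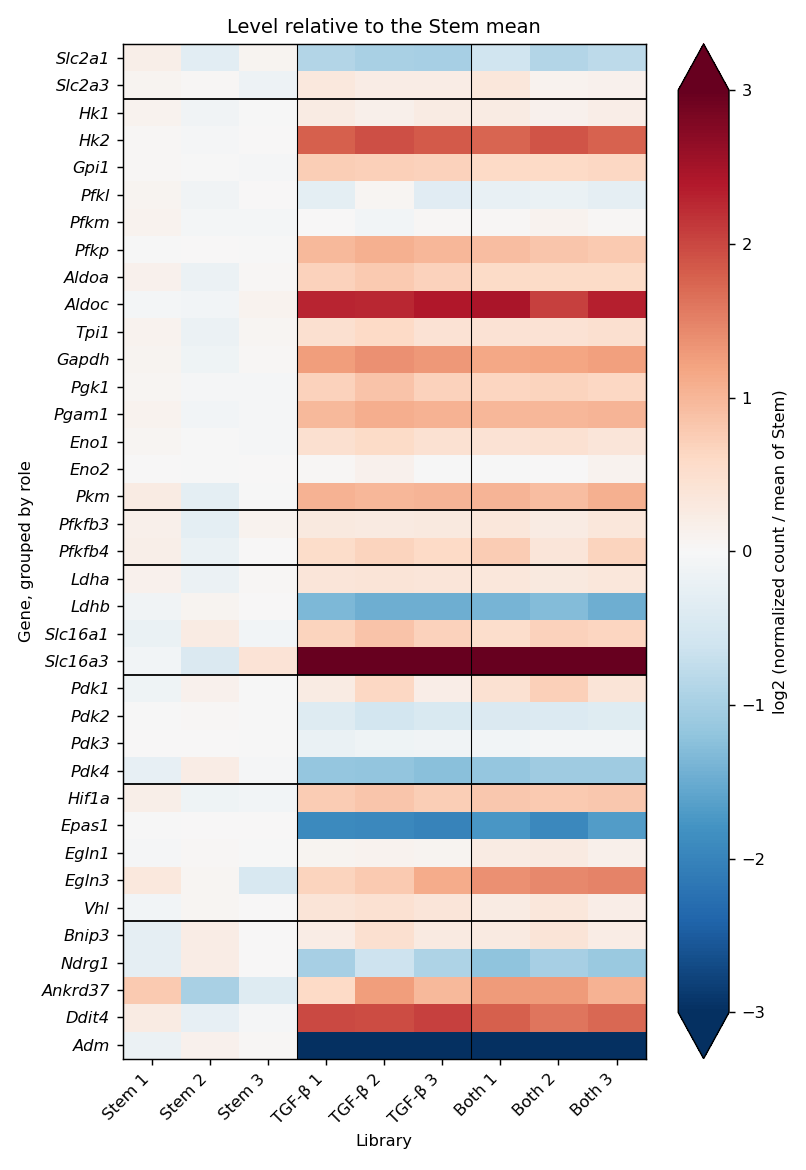
Heat map of the 37 members tested (rows, grouped by role) in the 9 libraries (columns). Color is the log2 of a library's normalized count over the mean of the 3 Stem libraries, capped at -3 and 3. The TGF-β and Both columns look alike, with Slc16a3 and Aldoc darkest among the genes higher than in Stem and Adm and Epas1 among those lower.

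Libraries within a group were close. Totals ran from 35686291 to 47741128 counts, and the Spearman correlation across genes was at least 0.995 within each group. Stem 2 was the lowest Stem library for 19 of the 37 members and had the lowest summed level of the 15 glycolytic enzymes. TGF-β 2 was the highest TGF-β library for 22 members. The progenitor markers Ly6a (Sca1), Cd34, Pdgfra and Scara5 were detected in every library, and their summed level was 50470 to 58770 in Stem, 6361 to 6638 in TGF-β and 6784 to 7423 in Both. All 4 were lower in TGF-β than in Stem. With PFI-3 added Pdgfra, the most abundant, rose (log2 fold change 0.205) while Scara5 fell (-1.18) and Ly6a (-0.36) and Cd34 (-0.62) missed the threshold. The summed level of 5 smooth muscle and myofibroblast genes was 10560 to 12270, 36910 to 40510 and 20050 to 22090 in the same order. Of these, Postn, Acta2 and Tagln rose between Stem and TGF-β, Myh11 fell (log2 fold change -1.58) and Cnn1 was at -0.18 (adjusted p = 0.20). One label names hepatic tissue as the source of the RNA, but 5 hepatocyte markers summed to at most 2.63 normalized counts in any library. Of 5 leukocyte markers Adgre1, Itgam and Cd3e were at 0 and Ptprc at 3 or less, while Csf1r ran from 18 to 143. Of 5 endothelial markers Pecam1, Cdh5 and Tie1 did not pass 13, Kdr was 0 to 2 in Stem and 21 to 32 in the treated libraries, and Emcn was 47 to 176 in Stem and 1 to 18 in the treated libraries. Of 4 adipocyte markers none passed 4.35. The part of these markers in the results on glycolysis was not tested.

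Glucose enters through the transporters, and here the main one fell. Slc2a1 (GLUT1) had 2977 to 4234 normalized counts in Stem libraries, 1868 to 2017 in TGF-β and 2033 to 2467 in Both. Its level in TGF-β was 0.518 of that in Stem (log2 fold change -0.95, SE 0.11, adjusted p = 6.94e-06). Slc2a3 (GLUT3), a high-affinity transporter, was scarce at 66 to 77 in Stem and 85 to 91 in TGF-β, a difference that missed the threshold (adjusted p = 0.096). Per kilobase of transcript, Slc2a3 made up 1.62% ± 0.36 (SD, n = 3) of the sum of both genes in Stem and 3.58% ± 0.0274 in TGF-β.

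Of the 15 glycolytic enzymes, 12 were higher in TGF-β and 0 lower, against 37.3% and 37.7% of all genes tested, and 6 were higher past the 2-fold minimum, against 10.6%. Summed over the 15, the level was 91020 ± 8117 (SD, n = 3) for Stem against 160200 ± 3788 for TGF-β, with no overlap. The median log2 fold change of the 15 was 0.72.

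Hexokinases phosphorylate glucose on entry and hold it in the cell. Hk2 (ENSMUSG00000000628), the inducible form, had 1482, 1404 and 1457 normalized counts in libraries Stem 1 to 3, 5023, 5571 and 5193 in TGF-β and 4883, 5341 and 4939 in Both. All 6 treated libraries lay far above Stem, and the rise in TGF-β was 3.63-fold (log2 fold change 1.86, SE 0.05, adjusted p = 1.46e-11). Hk1, the housekeeping form, rose 1.16-fold (adjusted p = 0.0033), a call that was lost with scaling to total counts. Hk1 was still the more abundant of the pair per kilobase of transcript. Hk2 made up 16.3% ± 0.682 of their sum in Stem and 37.7% ± 2.04 in TGF-β (n = 3, SD).

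Phosphofructokinase, the committed step of glycolysis, is built from muscle (Pfkm), liver (Pfkl) and platelet (Pfkp) subunits, and a rise was called for the platelet form. Pfkp (ENSMUSG00000021196) had 1188, 1206 and 1178 normalized counts in Stem libraries, 2352, 2497 and 2365 in TGF-β and 2269, 2106 and 2063 in Both. TGF-β was 2.02-fold above Stem (log2 fold change 1.01, SE 0.05, adjusted p = 1.36e-09). Every Both library lay below every TGF-β library. Pfkl and Pfkm had log2 fold changes of -0.18 (adjusted p = 0.079) and -0.02 (adjusted p = 0.81). Pfkl was called lower without Stem 2 (adjusted p = 0.031), without TGF-β 2 (7.7e-04), with total counts (0.0108) and without a filter on low counts (0.0076). With the replicate number as a block in the fit it was also called lower (adjusted p = 0.046). Counted per kilobase against Pfkp, Pfkl went from 71.5% ± 1.64 of the pair's sum in Stem to 52.1% ± 2.92 in TGF-β (n = 3, SD), so the platelet subunit neared the level of the liver form.

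Further down the chain, aldolase splits the sugar into 3-carbon units. Aldoc (ENSMUSG00000017390), the brain form, had 39, 38 and 43 normalized counts in Stem libraries, 194, 193 and 211 in TGF-β and 218, 167 and 200 in Both. Its rise of 4.97-fold (log2 fold change 2.31, SE 0.14, adjusted p = 1.54e-08) was the largest among the enzymes. Aldoc stayed a minor form, at 0.557% ± 0.0431 of the sum with Aldoa per kilobase in TGF-β (n = 3, SD). Aldoa, the main form, rose 1.65-fold.

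Gapdh (ENSMUSG00000057666), which makes the first NADH of the pathway and is widely used as a reference gene, had 9096, 7820 and 8723 normalized counts in Stem libraries, 20390, 22270 and 20930 in TGF-β and 19070, 19330 and 19900 in Both. Its rise in TGF-β was 2.48-fold (log2 fold change 1.31, SE 0.06, adjusted p = 6.26e-10), and every treated library held more than any Stem library by a wide margin. Near-identical pseudogene copies took few reads. Over the 13 copies of members in the table, the largest held 0.261% of its parent's counts.

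Pgam1 (ENSMUSG00000011752), the phosphoglycerate mutase of most tissues, had 2749, 2397 and 2494 normalized counts in Stem libraries, 4977, 5422 and 5271 in TGF-β and 5068, 5068 and 5134 in Both. It rose 2.05-fold in TGF-β (log2 fold change 1.04, SE 0.05, adjusted p = 2.61e-09). Pkm (ENSMUSG00000032294), pyruvate kinase, the last enzyme of the chain, had 28110, 19510 and 23620 in Stem, 48860, 47620 and 48210 in TGF-β and 48350, 45290 and 49970 in Both. Stem 2 was the lowest for Pkm, and the Stem libraries differed more than the treated ones. Its rise was 2.03-fold (log2 fold change 1.02, SE 0.10, adjusted p = 1.27e-06). Pfkp, Pgam1 and Pkm lie close to the 2-fold minimum and fell below it with scaling to total counts, at log2 fold changes of 0.90, 0.92 and 0.90.

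The remaining enzymes moved less. Gpi1, Pgk1, Tpi1 and Eno1, of the middle of the chain, rose 1.65-fold, 1.68-fold, 1.42-fold and 1.42-fold. Eno2, the neuronal enolase, ran from 587 to 598 normalized counts over the Stem libraries and from 587 to 643 over those of TGF-β (log2 fold change 0.05, adjusted p = 0.50), and its sign turned with scaling to total counts. Pfkfb3 and Pfkfb4, which make or break fructose-2,6-bisphosphate and so set the pace of phosphofructokinase, rose 1.22-fold (adjusted p = 0.0104) and 1.53-fold (adjusted p = 2.9e-04). The smaller rise, of Pfkfb3, was not called with scaling to total counts.

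**Figure D2:**
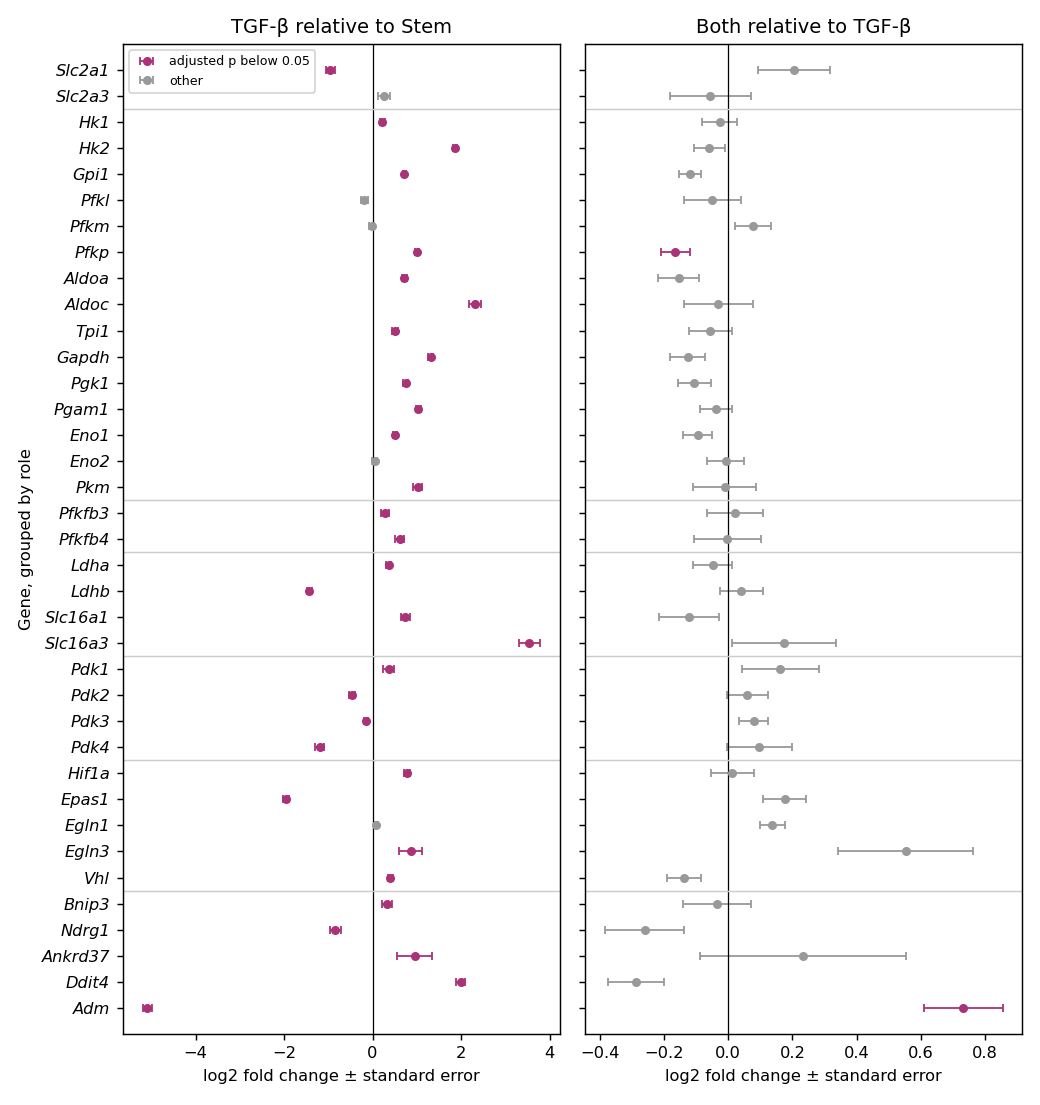
Log2 fold change (point) with its standard error (bar) from edgeR for the 37 members tested, grouped by role, for TGF-β relative to Stem (left) and Both relative to TGF-β (right), with different axis ranges. Purple marks an adjusted p below 0.05. In the left panel 32 members are purple, from -5.09 for Adm to 3.54 for Slc16a3, and in the right panel Pfkp at -0.16 and Adm at 0.73 are.

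At the lactate end, the genes of export rose and the heart-type dehydrogenase fell. Slc16a3 (ENSMUSG00000025161, MCT4), a transporter typical of cells that release lactate, had 21, 16 and 29 normalized counts in Stem libraries, 207, 341 and 229 in TGF-β and 287, 315 and 276 in Both. The Stem libraries did not pass 29, and no treated library fell below 207. The 11.7-fold rise (log2 fold change 3.54, SE 0.24, adjusted p = 5.21e-08) was the largest of all members. Slc16a1 (MCT1), which carries lactate in either direction, rose 1.67-fold and stayed more abundant, with Slc16a3 at 13.9% ± 2.4 of their sum per kilobase in TGF-β and 2.36% ± 0.87 in Stem (SD, n = 3).

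Ldhb (ENSMUSG00000030246), the subunit that favors turning lactate back into pyruvate, had 1814, 2082 and 1967 normalized counts in Stem libraries, 763, 709 and 710 in TGF-β and 746, 796 and 704 in Both. Its level in TGF-β was 0.372 of that in Stem (log2 fold change -1.43, SE 0.06, adjusted p = 1.01e-09), with every treated library below 800. Ldha, the subunit that favors lactate, rose 1.29-fold (adjusted p = 1.7e-04). Ldhb made up 20.0% ± 2.81 of the sum of both per kilobase in Stem and 6.68% ± 0.268 in TGF-β (n = 3, SD).

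The 4 PDH kinases, which close the path from pyruvate into mitochondria, went in different directions. Pdk4 (ENSMUSG00000019577), the form induced by fasting and fatty acids, had 1158, 1610 and 1345 normalized counts in Stem libraries, 614, 608 and 578 in TGF-β and 612, 658 and 655 in Both. It fell to 0.438 of the Stem level (log2 fold change -1.19, SE 0.10, adjusted p = 2.99e-07). Pdk2, found in most tissues, fell by 0.46 on the log2 scale and Pdk3 by 0.14. Pdk1, the form known as a HIF target, rose 1.29-fold (adjusted p = 0.017). The call for Pdk1 was lost without Stem 1 (adjusted p = 0.052), without TGF-β 2 (0.084) and with total counts, and that for Pdk3 without TGF-β 1 (0.069), with DESeq2 and without a filter on low counts.

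**Figure D3:**
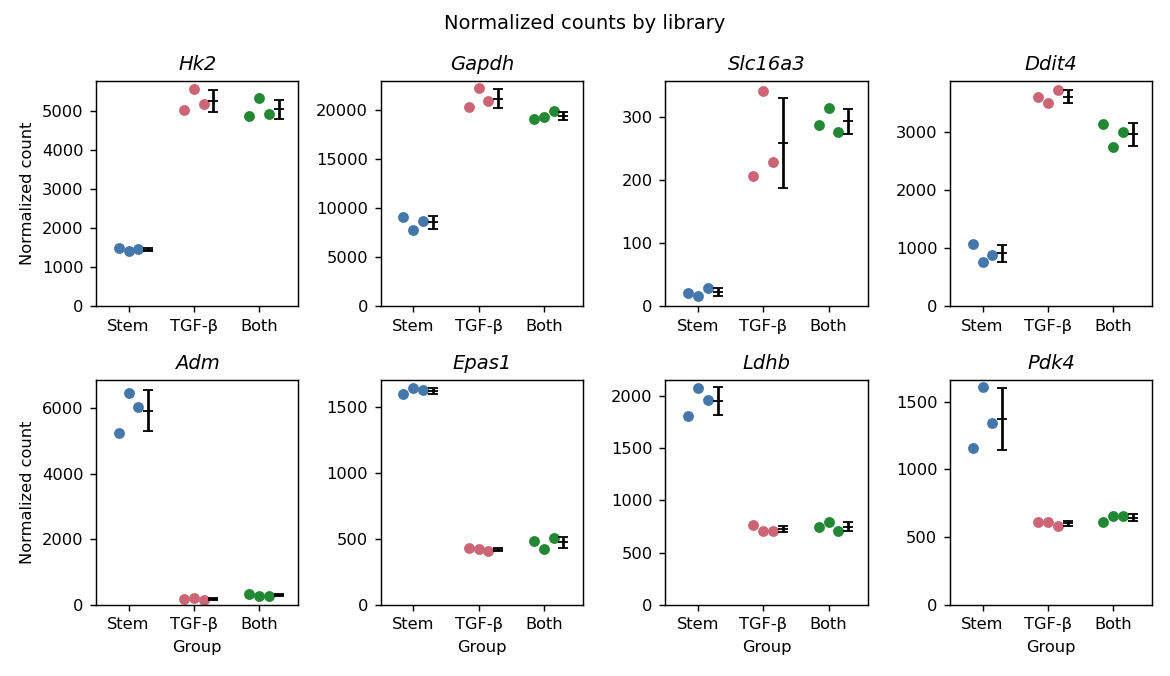
Normalized counts (vertical axes from 0, a scale for each gene) of 8 members in the 3 libraries of each group, with the mean and SD (n = 3) in black. Hk2, Gapdh, Slc16a3 and Ddit4 are higher and Adm, Epas1, Ldhb and Pdk4 lower in all 6 treated libraries than in the 3 Stem libraries.

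The genes of the 2 oxygen-regulated factors moved in opposite directions. Epas1 (ENSMUSG00000024140), which encodes HIF-2α, had 1597, 1644 and 1626 normalized counts in Stem libraries, 430, 423 and 405 in TGF-β and 486, 425 and 506 in Both. It fell to 0.258 of the Stem level (log2 fold change -1.95, SE 0.06, adjusted p = 5.68e-11), and the Stem libraries differed by less than 50. Hif1a, already the more abundant, rose 1.72-fold from 8314 to 10350 in Stem to 15260 to 16240 in TGF-β (log2 fold change 0.78, SE 0.07, adjusted p = 5.15e-07). Epas1 made up 13.4% ± 1.48 of the sum of both per kilobase in Stem and 2.25% ± 0.0849 in TGF-β (n = 3, SD). Among the genes that act on these factors, Vhl rose 1.32-fold. Egln3, a prolyl hydroxylase that HIF itself induces, rose 1.82-fold (adjusted p = 0.0088) at low levels of 10 to 17 in Stem and 22 to 29 in TGF-β. Egln1, the main hydroxylase, had 2551 to 2686 in Stem and 2744 to 2780 in TGF-β, a log2 fold change of 0.08 that missed the threshold (adjusted p = 0.075) and changed sign with scaling to total counts. Egln1 was called higher without Stem 2 (adjusted p = 0.024) and with the replicate number as a block in the fit (0.042).

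Of the 5 further HIF targets tested, 3 were called higher and 2 lower in TGF-β, against 37.3% and 37.7% of all genes tested. Ddit4 (ENSMUSG00000020108, REDD1), a stress-induced brake on mTORC1, had 1073, 768 and 882 normalized counts in Stem libraries, 3601, 3502 and 3732 in TGF-β and 3143, 2741 and 3002 in Both. It rose 3.98-fold in TGF-β (log2 fold change 1.99, SE 0.09, adjusted p = 1.72e-09). Adm (ENSMUSG00000030790), the vasodilator peptide adrenomedullin, had 5239, 6477 and 6053 in Stem, 174, 194 and 154 in TGF-β and 321, 261 and 283 in Both. Its TGF-β level was 0.0294 of that in Stem (log2 fold change -5.09, SE 0.11, adjusted p = 1.49e-12), the largest change of any member. Ndrg1, a growth-arrest gene strongly induced by low oxygen in many cells, fell by 0.84 on the log2 scale, from 2552 to 3607 in Stem to 1550 to 2013 in TGF-β. Bnip3, a mitophagy receptor, rose 1.25-fold (adjusted p = 0.016), but the Stem and TGF-β libraries overlapped and the call was lost without Stem 1 (0.055), without TGF-β 2 (0.072) and with total counts. Ankrd37 rose 1.93-fold (adjusted p = 0.042), a call that rests on libraries of 4 to 20 normalized counts and was lost without Stem 2 (adjusted p = 0.149), without Stem 3 (0.131), without TGF-β 2 (0.134), without TGF-β 3 (0.079), without Both 1 (0.053) and without Both 2 (0.052), as well as with DESeq2, total counts and only the 6 libraries compared.

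**Figure D4:**
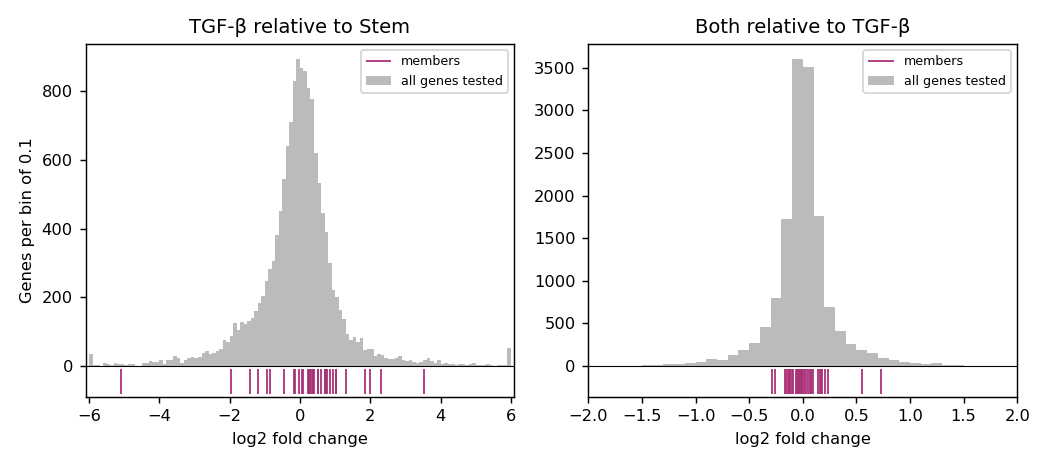
Distribution of the log2 fold changes of all 14879 genes tested (grey bars, bins of 0.1) with the 37 members as purple ticks below the axis, for TGF-β relative to Stem (left, where the outermost bars hold all genes beyond the axis) and Both relative to TGF-β (right, cut at -2 and 2). On the left most ticks lie to the right of 0, with a median of 0.40, and on the right they gather near 0, with a median of -0.026.

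Relations between alternative forms of an enzyme do not depend on how libraries are scaled, since both counts come from the same library. The log2 ratios of 14 pairs (such as Hk2 to Hk1) were compared between groups with a two-sided exact permutation test of 3 libraries against 3, which cannot give a p below 0.1. Between Stem and TGF-β all 14 pairs lacked overlap, each with the smallest possible exact p of 0.1 (0.1 after Benjamini-Hochberg adjustment over the 14). Single genes lacked overlap at 76.8%, as given above, but the share for ratios of other gene pairs was not computed. Pdk2 and Pfkp are shared between pairs, so the 14 are not independent. The largest shifts from Stem to TGF-β were 2.80 for Slc16a3 to Slc16a1, -2.74 for Epas1 to Hif1a, -1.80 for Ldhb to Ldha and 1.64 for Hk2 to Hk1, in log2 units. Between TGF-β and Both, 4 of the 14 lacked overlap, against 32.7% of single genes, with the share for other gene pairs again not computed. The 4 were Slc2a3 to Slc2a1, Pfkm to Pfkp, Eno2 to Eno1 and Egln3 to Egln1, with exact p = 0.1 each and 0.35 after adjustment. These 4 shifts were -0.26, 0.24, 0.09 and 0.43.

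**Figure D5:**
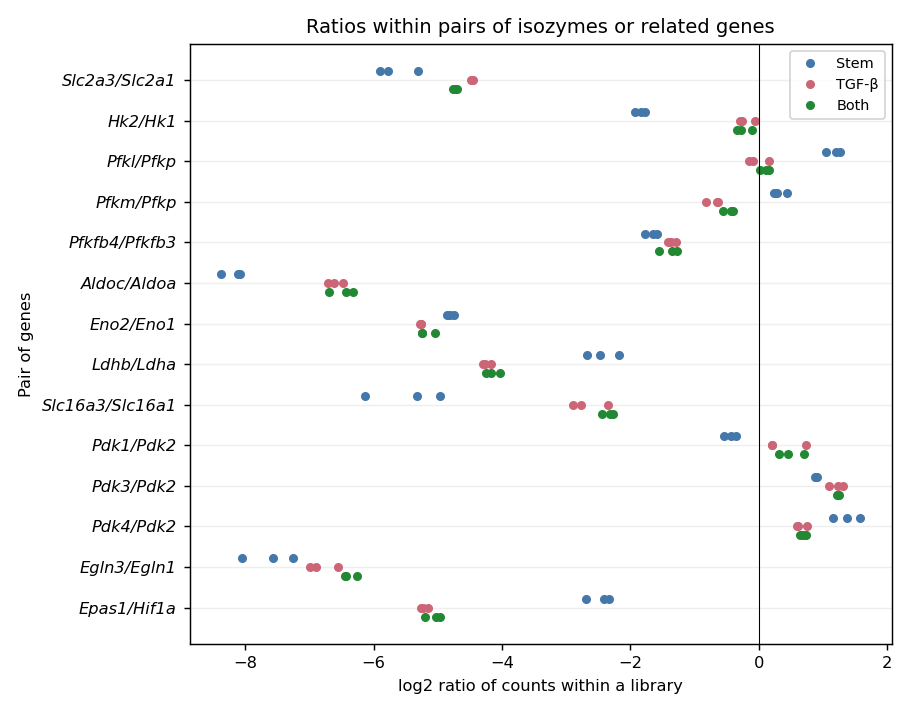
Log2 ratio of the counts of 2 related genes within a library (horizontal axis) for 14 pairs (rows), with a point for each of the 9 libraries colored by group. The Stem points stand apart from the TGF-β points in all 14 rows, and TGF-β and Both points overlap in 10 of them.

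With PFI-3 added, most of the members' levels stayed close to those with TGF-β alone. In Both relative to TGF-β, 1 member was higher and 1 lower at an adjusted p below 0.05 by edgeR, against 3.54% and 5.38% of all genes, and 0 passed the 2-fold minimum, against 0.161% and 0.47%. With total counts the 2 called were both higher, Adm and Egln1, against 3.56% of all genes called higher and 4.66% lower. Without adjustment 10 of the 37 members (27.0%) had p below 0.05, close to the 24.1% of all genes, and DESeq2 also placed 0 past the 2-fold minimum. The groups lacked overlap in 15 of 37 members, against 32.7% of all genes. The log2 fold changes of the 37 had a median of -0.026 and lay between -0.29 and 0.73, and their median size regardless of sign was 0.095, with 0.106 for all genes.

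Adm was the member that was higher in Both, by 1.66-fold over TGF-β (log2 fold change 0.73, SE 0.12, adjusted p = 0.0032), with 261 or more in every Both library and 194 or less in every TGF-β library. It was called under each of the 18 alternatives tried. Its level in Both was still 0.0488 of that in Stem. Pfkp was the member that was lower, at 0.892 of the TGF-β level (log2 fold change -0.16, SE 0.05, adjusted p = 0.043). That call was lost without any 1 of the TGF-β libraries, and without Stem 3, Both 2 or Both 3, with adjusted p-values of 0.074 to 0.176. In those 6 fits 1 or 2 members were called, whereas leaving out Stem 1 or Stem 2 raised the number to 5 and 7. The share of all genes called in each of these fits is not given here, so a shift particular to the members cannot be read from the numbers. Epas1 was called higher in Both without Both 2 (adjusted p = 0.031), where its log2 fold change was 0.24 in place of 0.18.

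Of the 15 glycolytic enzymes, 14 had a negative log2 fold change in Both relative to TGF-β, as had 7516 of all 14879 genes tested. Of the 15, 1 was called, and the values lay between -0.16 and 0.08. TGF-β 2 was the highest TGF-β library for 22 of the 37 members. Without it the median log2 fold change of the members as a whole, not of the 15 enzymes, went from -0.026 to 0.012. Summed over the 15, Both stood at 152300 ± 1861 (SD, n = 3) against 160200 ± 3788 for TGF-β. These sums did not overlap, at 150300 to 154000 in Both and 157700 to 164500 in TGF-β, with TGF-β 2 the highest. Gpi1 (log2 fold change -0.12, adjusted p = 0.053) and Egln1 (0.14, adjusted p = 0.051) lay just beyond the threshold, followed by Ddit4 (-0.29, adjusted p = 0.064). Ddit4 had no overlap, with 3502 to 3732 in TGF-β and 2741 to 3143 in Both. Egln3 ran from 22 to 29 in TGF-β and from 35 to 38 in Both (log2 fold change 0.55, SE 0.21, adjusted p = 0.13). Slc2a1, Hk2, Slc16a3 and Ldhb had adjusted p-values of 0.29, 0.51, 0.57 and 0.77. The standard errors of their log2 fold changes were 0.11, 0.05, 0.16 and 0.07. Of these only Slc2a1 lacked overlap, with 1868 to 2017 in TGF-β and 2033 to 2467 in Both. It was called higher in Both without a filter on low counts, with only the 6 libraries compared and without Stem 2.

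Compared with Stem, the Both libraries gave nearly the same counts as TGF-β alone. At an adjusted p below 0.05, 25 members were higher and 8 lower, against 36.6% and 36.6% of all genes. With the 2-fold minimum 8 were higher and 5 lower, against 9.55% and 13.2%. Ndrg1 passed the 2-fold minimum here, with 1339 to 1563 in Both (log2 fold change -1.10, SE 0.12, adjusted p = 4.62e-06), as did Egln3 (1.42, adjusted p = 1.8e-04) and Ankrd37 (1.19, adjusted p = 0.012). Pfkp at 0.85 and Pgam1 at 1.00 on the log2 scale did not. Without Stem 2 the number of lower members past the minimum went from 5 to 3.

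A second list of 83 genes of the same pathways, none of them members, was looked at for context, and 73 of these were tested. In TGF-β relative to Stem 39 were higher and 24 lower at an adjusted p below 0.05, against 37.3% and 37.7% of all genes, and 15 and 5 passed the 2-fold minimum, against 10.6% and 14.5%. Among 33 genes of glycolysis, pyruvate and glycogen 18 were higher and 8 lower, and among 40 of oxygen sensing and HIF targets 21 were higher and 16 lower. Among the largest rises were those of Pgf (placental growth factor), 18.0-fold, Lox (lysyl oxidase, which crosslinks collagen), 12.1-fold, and Ddit3 (CHOP, a stress factor), 6.4-fold. Among genes with a mean of at least 100 normalized counts the largest falls were those of Angptl4, an inhibitor of lipoprotein lipase, to 0.0525 of the Stem level, Zfp395 to 0.132 and Pdp1, the phosphatase that switches pyruvate dehydrogenase on, to 0.285.

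Between TGF-β and Both 3 of these 73 were higher and 8 lower at an adjusted p below 0.05, against 3.54% and 5.38% of all genes. The genes higher in Both included P4ha2, a collagen prolyl hydroxylase (log2 fold change 0.28, adjusted p = 0.020), and Slc2a10, a glucose transporter family member (0.28, adjusted p = 0.024). The largest falls were those of Pgf (-0.58, adjusted p = 0.0090), Stc2, a secreted glycoprotein (-0.51, adjusted p = 0.012), and Hmox1, heme oxygenase (-0.39, adjusted p = 0.0091). Pgf had 227 to 247 normalized counts in TGF-β and 141 to 180 in Both.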

How the data were processed

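RNA-Seq was done on 9 libraries of AdvSca1-SM cells, 3 per group (Stem, TGF-β, Both), assigned by the sample titles. The authors deposited raw counts per Ensembl gene, 1 column per library, with no normalization. The study's methods describe trimming with Flexbar and alignment with STAR to GRCm39. The submitters' processing notes name HISAT2 2.2.1, SAMtools 1.13 and HTSeq 0.11.3 with GRCm39, and which of these made the table is not given in the sources used here, nor are the strand setting and the handling of reads with several alignments.

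The counts were tested with edgeR 4.0.16 in R 4.3.3 (filterByExpr, TMM, quasi-likelihood test, 1 fit for the 9 libraries together, prior count 0.125, Benjamini-Hochberg adjustment over 14879 genes). Genes were called at an adjusted p below 0.05, with or without a log2 fold change below -1 or above 1. The study's methods name DESeq2, which was run as an alternative (version 1.42.0). The common dispersion was 0.00376, a biological coefficient of variation of 6.13%. On counts simulated for Stem versus TGF-β over 14879 genes, edgeR recovered 49 of 50 genes changed 1.5-fold and 50 of 50 changed 2-fold. The simulation changed 200 genes in all, far fewer than were called in the data. They were drawn only from genes with many reads, so recovery of scarce genes was not tested. Levels per kilobase used the longest transcript of the best APPRIS rank in GENCODE M21. Promoter windows were taken from RefSeq.

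Every member may be named. Values in every library are given for members past the 2-fold threshold in Stem versus TGF-β or with an adjusted p below 0.05 in TGF-β versus Both. Of other pathway genes the 4 largest rises and falls past the threshold with a mean of at least 100 normalized counts are named, and the 3 largest called changes each way between TGF-β and Both. Only 3 falls qualified, and 1 gene that this rule selects is not reported here. The members and lists were chosen with earlier results of these data known. Alternatives were DESeq2, DESeq2 size factors, total counts, no filter, a mean of at least 10 counts, only the 6 libraries compared, a replicate block, added copies, a prior count of 2 and leaving out each library. Shared replicate numbers were not used to pair libraries in the main fit.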

Additional observations from a re-analysis of the deposited data

How the results depend on the processing

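In Stem versus TGF-β, members called at an adjusted p below 0.05 numbered 28 to 34 and those past the 2-fold minimum 10 to 14 under every alternative run. Between TGF-β and Both the number called was 2 and moved to 4 with DESeq2, 6 without a filter on low counts, 7 with only the 6 libraries compared and 6 with the replicate block, and leaving out 1 library gave 1 to 7. The share of all genes called in these fits is not given here, so the members' counts cannot be set against it. The cause of these moves was not tested. Adm was called under all of these alternatives. The main fit did not pair libraries by replicate number. Correlations of deviations from the group means between same-numbered libraries ran from -0.0601 to 0.177 and those between others from -0.156 to 0.148. Among libraries numbered 2 all were positive (0.148 for Stem and TGF-β, 0.177 for Stem and Both, 0.117 for TGF-β and Both). Libraries numbered 2 had negative values with all other numbers, from -0.156 to -0.0057. Among those numbered 1 the values ran from 0.00272 to 0.0955, and among those numbered 3 from -0.0601 to 0.0147. With the replicate block the 6 called were Adm, Ddit4, Egln1, Gpi1, Ndrg1 and Pfkp, and in Stem versus TGF-β 34 members were called in place of 32, with Pfkl (adjusted p = 0.046) and Egln1 (0.042) added.

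With total counts in place of TMM, the median over all genes of the log2 fold change in TGF-β relative to Stem went from -0.003 to -0.122, the members' median to 0.284, and members higher past the 2-fold minimum from 8 to 5. Over all genes the number higher past that minimum went from 1575 to 1347. With total counts 30.6% of all genes were called higher and 44.2% lower in that comparison, and for Both relative to Stem 29.8% and 42.9%. Eno2 reversed to -0.074 and Egln1 to -0.034 with total counts, neither of them called. Pfkm ran from -0.043 to 0.05 when 1 library was left out, with positive values without Stem 1 and without TGF-β 2. Over single genes and alternatives, 735 values kept their direction and their side of the threshold, 27 lost and 26 gained a call, and 4 reversed. These numbers cover the members in Stem versus TGF-β, and Adm, Pfkp, Gpi1, Egln1, Egln3, Ddit4 and Epas1 in TGF-β versus Both. Stem versus Both was not scored in this way. Calls that Aldoa, Slc2a1 and Ndrg1 gained between TGF-β and Both under some alternatives are not among them. Depth limited Car9, Ankrd37 and Egln3, which had few reads.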
